A study of Mus musculus with 6 samples.

Results

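The genes described here are 10 genes of cartilage and bone differentiation, out of 23748 genes with a row in the array table: the runt-related transcription factor genes Runx1, Runx2 and Runx3, the osteoblast factor gene Sp7, the phosphatase gene Alpl, and the matrix protein genes Acan, Comp, Matn2, Spp1 and Ibsp. They were taken by name, with earlier results of these data known, and each of the 10 has 1 row. The cells were mouse embryonic fibroblasts grown from E14.5 embryos in DMEM/F12 with 20% donor bovine serum and collected while proliferating, before any differentiation was started. There were 3 wild type arrays and 3 FOG-2 Rb- arrays. FOG-2 Rb- cells carry a knock-in form of FOG-2, a co-factor of GATA transcription factors encoded by Zfpm2, which by the title of the study cannot bind the retinoblastoma protein pRb. The labels give no zygosity, strain or sex for the embryos. The arrays of each genotype are numbered as experiments 1 to 3 and nothing says that they were separate embryos or cultures; p-values therefore cover the spread between these arrays alone, which may be technical. Every wild type title carries the number 18 and every FOG-2 Rb- title the number 27, so genotype and whatever these numbers mark cannot be told apart.

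RUNX proteins bind DNA through the runt domain as partners of the non-DNA-binding subunit CBFβ, encoded by Cbfb. RUNX2 is required for osteoblast formation and for chondrocyte hypertrophy, SP7 (osterix) acts after it in osteoblasts, and SOX9 with SOX5 and SOX6 directs chondrocyte formation. Alpl, Spp1 and Ibsp mark successive steps of mineralising osteoblasts, and Acan encodes aggrecan, the large proteoglycan of cartilage. Embryonic fibroblasts are a mixed mesenchymal population that can include progenitors of skeletal cells.

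The 3 RUNX genes share a stretch of sequence at a start site. It was chosen for display with the changes of these genes known, and whether it bears on them was not tested. In the RefSeq promoter windows (GRCm38.p6, 250 bases before to 50 after each start), Runx1, Runx2 and Runx3 each hold a tandem pair of RUNX motifs, separated by the bases ga. The motif is TGTGGT, printed in capitals in its reverse complement ACCACA, in the direction of the gene.
Runx1, chr16:92826026-92826053, minus strand: ataaacaACCACAgaACCACAagttggg
Runx2, chr17:44814584-44814611, minus strand: acaaacaACCACAgaACCACAagtgcgg
Runx3, chr4:135120504-135120531, plus strand: tccctcaACCACAgaACCACAaggccag
The pair spans bases 29 to 42 after the start in Runx1, 24 to 37 after it in Runx2, and bases -134 to -121 in Runx3, where -1 is the base before the start. Runx1 and Runx3 have a further window each, at another start, without the motif. This tandem form, singled out after the windows had been read, occurred in 4 of 32851 windows on either strand: the 3 above and that of Gm16225, a long non-coding RNA gene on the opposite strand whose window overlaps that of Runx3 and holds the same site. The plain motif TGTGGT, searched on both strands, occurred in 16.8% of all windows. The related motif TGCGGT occurred in 6.45% of them and in that of Runx2.

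Spp1 is the other member with a TGTGGT match, in the window of its first start. Its 250 bases before that start (chr5:104434861-104435110, plus strand, GRCm38.p6) are printed with the match, bases -128 to -123, in capitals.
Spp1: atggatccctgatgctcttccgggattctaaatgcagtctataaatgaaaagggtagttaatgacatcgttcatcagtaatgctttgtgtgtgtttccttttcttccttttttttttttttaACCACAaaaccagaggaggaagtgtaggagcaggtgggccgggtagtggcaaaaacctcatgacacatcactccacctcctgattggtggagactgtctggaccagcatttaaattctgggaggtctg
Windows were held for 7 of the 10 genes, 11 windows in all, and TGTGGT was in those of 4 genes. The GATA motifs AGATAA and TGATAA, searched on both strands because FOG-2 works with GATA factors, occurred in 11.2% and 9.05% of all windows. Among the members, 1 window, that of a second start of Spp1, held TGATAA. The windows of Alpl, Acan and Ibsp held none of these letters. Matches are descriptions of letters and not binding sites.

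In the cells, all 3 RUNX genes, Spp1 and Acan were lower in FOG-2 Rb-, Matn2 was higher, and Sp7, Alpl, Comp and Ibsp did not pass the test. Differences were tested with limma across all rows with Benjamini-Hochberg adjustment, and a change was called at an adjusted p under 0.05. Of the 10 genes 5 fell and 1 rose; in the same fit 18% of all rows were called, 8.59% as lower and 9.44% as higher. The arrays of the genotypes did not overlap for 6 of the 10, against 35.6% of all rows. The median log2 fold change was -0.20 over the 10 genes and -0.02 over all rows. The 10 genes were chosen with earlier results of these data known, so these shares do not measure how unusual they are. In these bulk samples, fewer cells of a type and less RNA per cell cannot be told apart.

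**Figure D1:**
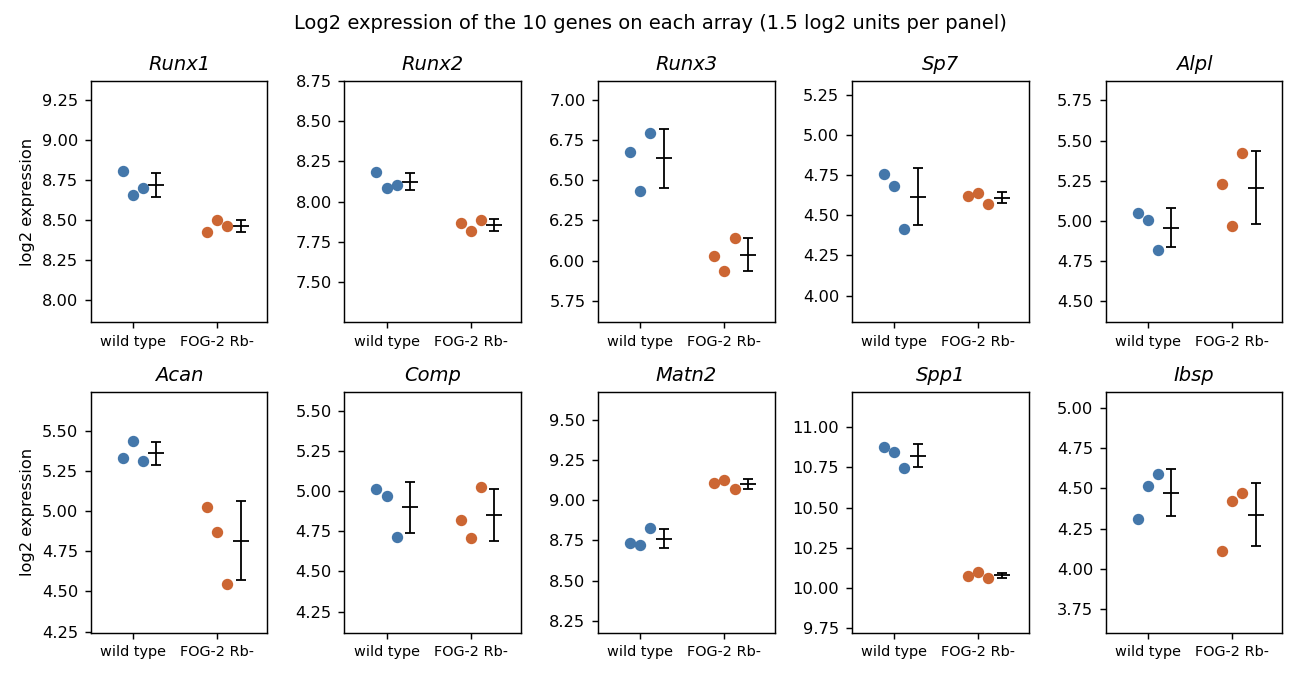
Log2 expression (vertical axis) of the 10 genes on each of the 3 wild type arrays (blue) and 3 FOG-2 Rb- arrays (orange), with the mean and SD of each genotype beside the points. Every panel spans 1.5 log2 units; the genotypes are apart for Runx1, Runx2, Runx3, Acan, Matn2 and Spp1 and overlap for Sp7, Alpl, Comp and Ibsp.

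The level of the array at which a row carries signal was judged from 1088 odorant receptor rows, genes not expected in fibroblasts, used only as a description. Their 95th percentile was 5.10 on the log2 scale in wild type and 5.07 in FOG-2 Rb-. Ibsp, Comp and Sp7 lay below it in both genotypes, Alpl below it in wild type, and Acan below it in FOG-2 Rb-. Averaged over the 6 arrays, 7 of the 10 genes lay at or above 5.07, with Acan (5.09) and Alpl (5.08) just above and Comp (4.88) the nearest below. Among the 14048 rows at or above that level, 28.2% were called, 13.2% as lower.

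**Figure D2:**
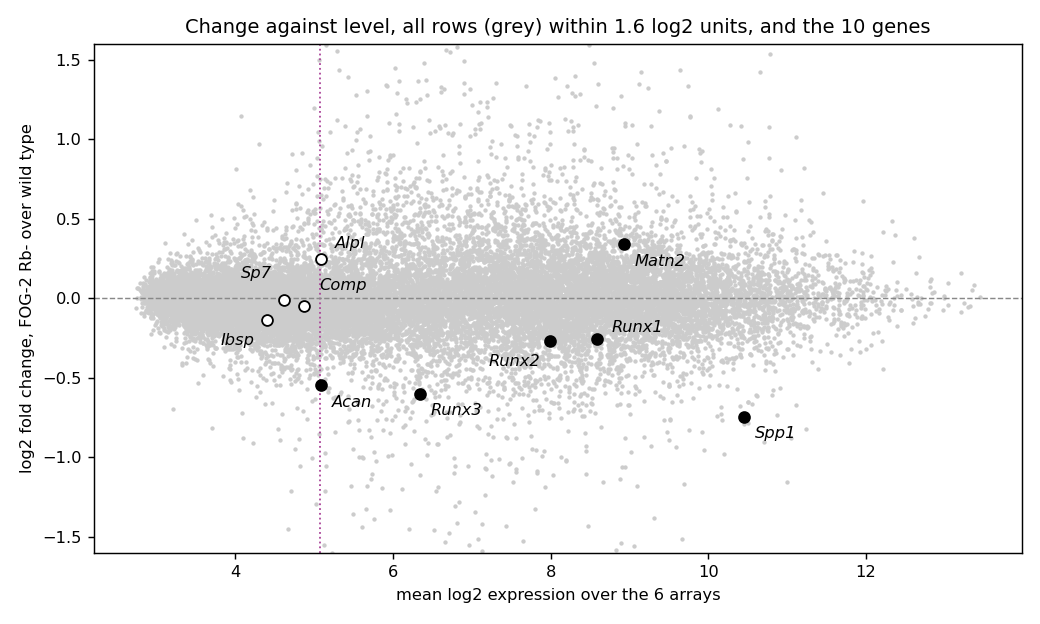
Log2 fold change of FOG-2 Rb- over wild type (vertical axis) against the mean log2 expression over the 6 arrays (horizontal axis) for all rows within the axis (grey) and the 10 genes (black filled, adjusted p under 0.05; open, not past it). The dotted line is the 95th percentile of odorant receptor rows (5.07); Spp1 is the brightest of the 10, and Sp7, Ibsp and Comp lie left of the line.

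Runx2, the factor required for osteoblasts, was lower in FOG-2 Rb- cells by a small amount. Log2 expression was 8.19, 8.09 and 8.10 on the wild type arrays and 7.87, 7.82 and 7.89 on the FOG-2 Rb- arrays, in the order of replicates 1 to 3 here and for each gene that follows. The lowest wild type array was above the highest FOG-2 Rb- array. Means were 8.12 ± 0.05 and 7.86 ± 0.04 (SD, n = 3 each), which gave a log2 fold change of -0.27 (SE 0.05, 95% confidence interval -0.39 to -0.15, limma adjusted p = 0.0113), or 1.21-fold. The call held without any 1 array, with adjusted p up to 0.0464. A change of this size or larger was found in 15.7% of all rows.

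Runx1, best known for its role in blood formation and also active in mesenchymal progenitors, fell by a similar amount. Its log2 values were 8.80, 8.66 and 8.70 in wild type and 8.43, 8.5 and 8.46 in FOG-2 Rb-. The genotypes did not overlap. The log2 fold change was -0.26 (SE 0.06, limma adjusted p = 0.0204), or 1.19-fold. The call was lost without FOG-2 Rb- replicate 1 (adjusted p = 0.0723) or replicate 3 (0.0688), with log2 fold changes between -0.29 and -0.21 over the 6 fits that left out an array.

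Runx3, a factor of T cells, sensory neurons and maturing cartilage, had the largest change of the RUNX genes. Wild type arrays gave 6.68, 6.44 and 6.80 and FOG-2 Rb- arrays 6.03, 5.94 and 6.14 on the log2 scale. Spread among the wild type arrays was wider than for the other RUNX genes, and the genotypes were still apart. Means were 6.64 ± 0.18 and 6.04 ± 0.10 (SD, n = 3 each), which gave a log2 fold change of -0.60 (SE 0.10, limma adjusted p = 0.00761), or 1.52-fold. The log2 fold change of Runx3 minus that of Runx1 was -0.34 (SE 0.12), and minus that of Runx2 it was -0.33 (SE 0.11). For each of these differences the arrays did not overlap and the exact two-sided permutation test gave p = 0.1, the smallest that 3 arrays against 3 allow (0.15 adjusted over 3 pairs). The log2 fold change of Runx2 minus that of Runx1 was -0.01 (SE 0.04; exact permutation p = 0.9, 0.9 adjusted over the 3 pairs).

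Sp7, which acts after RUNX2 in osteoblasts, stayed within the range of odorant receptor rows. It measured 4.76, 4.68 and 4.41 in wild type and 4.62, 4.64 and 4.57 in FOG-2 Rb- on the log2 scale. The FOG-2 Rb- values lay inside the wild type range. The log2 fold change was -0.01, with a 95% confidence interval of -0.22 to 0.21 (limma adjusted p = 0.971).

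Alpl encodes tissue-nonspecific alkaline phosphatase, which frees phosphate for mineral and is widely used to mark osteoblasts. Its log2 values were 5.05, 5.01 and 4.82 in wild type and 5.23, 4.97 and 5.42 in FOG-2 Rb-. The genotypes overlapped, with FOG-2 Rb- replicate 2 below wild type replicates 1 and 2. The log2 fold change was 0.25 (95% confidence interval -0.04 to 0.53, limma adjusted p = 0.229), which did not pass.

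**Figure D3:**
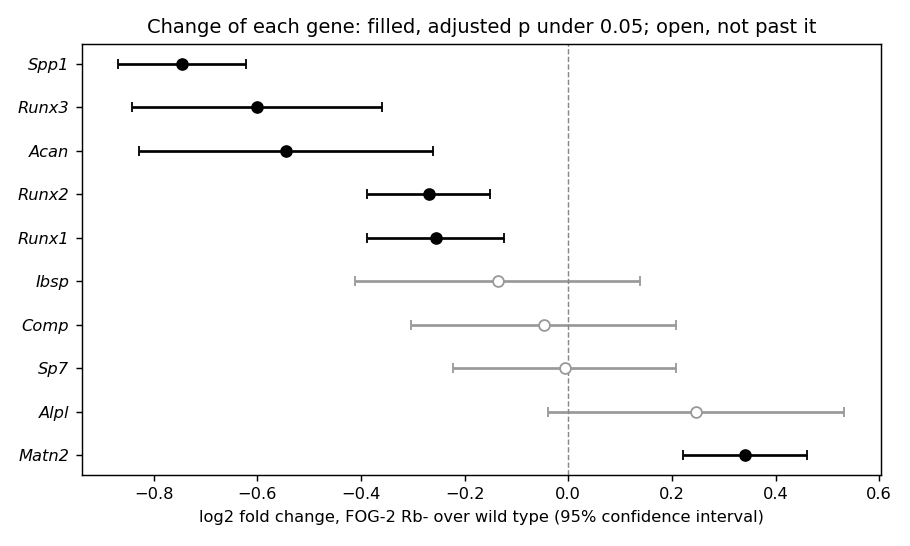
Log2 fold change of FOG-2 Rb- over wild type (horizontal axis) with its 95% confidence interval for each of the 10 genes, from the limma fit over all rows. Filled points passed an adjusted p of 0.05; Spp1 (-0.74) has the largest change and Matn2 (0.34) is the filled point above 0.

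Spp1, which encodes the secreted phosphoprotein osteopontin, had the largest change of the 10 genes. Wild type arrays gave log2 values of 10.88, 10.85 and 10.74, and FOG-2 Rb- arrays 10.08, 10.10 and 10.06. The genotypes were far apart relative to the spread within each. Means were 10.82 ± 0.07 and 10.08 ± 0.02 (SD, n = 3 each), and the log2 fold change was -0.74 (SE 0.05, 95% confidence interval -0.87 to -0.62, limma adjusted p = 0.000181), or 1.68-fold. A larger absolute change was found in 2.21% of all rows. Leaving out any 1 array gave values from -0.78 to -0.72, each past the threshold. Besides bone, osteopontin is made by macrophages, epithelia and osteoclasts, so markers of these cells are given further on.

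Ibsp encodes bone sialoprotein, a mineral-binding relative of osteopontin. Its log2 values were 4.31, 4.52 and 4.59 in wild type and 4.11, 4.42 and 4.47 in FOG-2 Rb-. The genotypes overlapped, all within the range of odorant receptor rows. Its log2 fold change, -0.14, did not pass (95% confidence interval -0.41 to 0.14, limma adjusted p = 0.5).

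Acan, the aggrecan gene and a target of SOX9 in cartilage, was dim and lower in FOG-2 Rb-. On the log2 scale it measured 5.33, 5.44 and 5.31 in wild type and 5.03, 4.87 and 4.55 in FOG-2 Rb-. The FOG-2 Rb- arrays spread more widely, with replicate 3 lowest, and did not overlap the wild type arrays. Means were 5.36 ± 0.07 and 4.81 ± 0.25 (SD, n = 3 each), which gave a log2 fold change of -0.54 (SE 0.12, limma adjusted p = 0.0216), or 1.46-fold. Leaving out a wild type array ended the call (adjusted p = 0.054 for replicate 1, 0.0768 for replicate 2 and 0.0525 for replicate 3), as did leaving out FOG-2 Rb- replicate 2 (0.0548), and the fall ranged from -0.65 to -0.41 over the 6 fits that left out an array.

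Comp encodes a pentameric thrombospondin of cartilage and tendon matrix. Log2 values of 5.01, 4.97 and 4.72 in wild type and 4.82, 4.71 and 5.03 in FOG-2 Rb- overlapped within the range of odorant receptor rows. Its log2 fold change was -0.05 (95% confidence interval -0.30 to 0.21, limma adjusted p = 0.82).

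Matn2, a matrilin made by fibroblasts and other connective tissue cells rather than by cartilage alone, was the member that rose. Its log2 values were 8.73, 8.72 and 8.83 in wild type and 9.11, 9.13 and 9.07 in FOG-2 Rb-. All FOG-2 Rb- arrays lay above all wild type arrays. Means were 8.76 ± 0.06 and 9.10 ± 0.03 (SD, n = 3 each), which gave a log2 fold change of 0.34 (SE 0.05, limma adjusted p = 0.00445), or 1.27-fold, and the call held without any 1 array (adjusted p up to 0.0222).

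Most other genes of cartilage did not pass. Of 30 measured cartilage genes outside the 10, 7 fell, 2 rose and 21 did not pass. Thus 30% were called, 23.3% as lower, against 18% and 8.59% of all rows. On average 14 of the 30 lay at or above the odorant receptor level. Every gene that fell except Chad was among these 14, and neither gene that rose was. Of all rows at that level, 28.2% were called, 13.2% as lower, which does not compare with the shares of the whole list. The median log2 fold change of the 30 genes was -0.11. In this list 12 genes lay within the range of odorant receptor rows in both genotypes. Among them was Chad, which fell and was named after its values were seen. Sox9, the leading chondrocyte factor, measured 10.02, 9.91 and 10.08 in wild type and 8.54, 8.67 and 8.67 in FOG-2 Rb- on the log2 scale, a 2.6-fold fall. Its partner Sox5 fell 1.23-fold (log2 fold change -0.30, SE 0.05, limma adjusted p = 0.00641). For Sox6, the other partner, the log2 fold change was -0.15 (adjusted p = 0.263). Trps1, a GATA-type repressor of growth plate chondrocytes, fell 2.09-fold, the matrix Gla protein gene Mgp, an inhibitor of calcification, 1.84-fold, and Col10a1, the collagen of hypertrophic chondrocytes and a RUNX2 target, 1.96-fold to a level within the odorant receptor range. Prg4, the lubricin gene of joint surfaces, rose 1.49-fold from a wild type level within the odorant receptor range. Col2a1, the main cartilage collagen and a SOX9 target, did not pass, at a log2 fold change of 0.10 (adjusted p = 0.512); whether its change differs from that of Acan was not tested.

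Bone genes moved in both directions. Of 29 measured outside the 10, 8 fell, 6 rose and 15 did not pass (48.3% called, against 18% of all rows). Averaged over the 6 arrays, 24 of the 29 lay at or above the odorant receptor level, where 28.2% of rows were called. The median of the log2 fold changes of the 29 was -0.08. The homeobox factor gene Dlx5, which acts upstream of Runx2 and Sp7 in osteoblasts, fell 2.62-fold. It went from 6.46 ± 0.10 to 5.07 ± 0.13 on the log2 scale (SD, n = 3 each), to the upper edge of the odorant receptor range. Bmp2, an inducer of bone formation, fell 2.01-fold to within the odorant receptor range, and Ank, which exports the mineralisation inhibitor pyrophosphate, 1.66-fold. Omd, a keratan sulfate proteoglycan of bone, rose 1.85-fold, and Cdh2, the N-cadherin gene, 1.54-fold. Bglap, the osteocalcin gene of mature osteoblasts, did not pass, at a log2 fold change of -0.18 (adjusted p = 0.334); near-identical osteocalcin copies may share its probes.

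**Figure D4:**
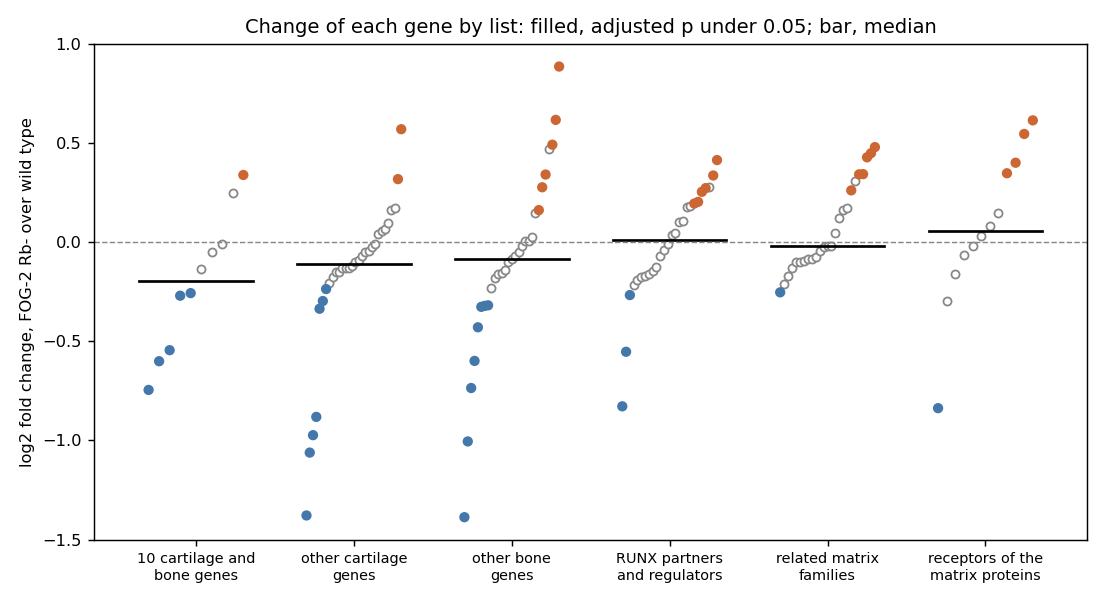
Log2 fold change of FOG-2 Rb- over wild type (vertical axis) for each measured gene of 6 lists, ordered within a list. Blue and orange filled points fell or rose at an adjusted p under 0.05, open points did not pass, and bars are medians, which run from -0.20 for the 10 genes to 0.06 for the receptors.

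The RUNX partner gene Cbfb fell as well. Its product stabilises RUNX proteins on DNA. Cbfb measured 9.85, 9.76 and 9.73 in wild type and 9.26, 9.21 and 9.22 in FOG-2 Rb- on the log2 scale, which did not overlap. This gave a log2 fold change of -0.55 (SE 0.05, limma adjusted p = 0.000578), or 1.47-fold. Of 26 partners and regulators of RUNX proteins, 3 fell, 6 rose and 17 did not pass, with a median log2 fold change of 0.01. All 26 lay at or above the odorant receptor level, and the 34.6% called is near the 28.2% of all rows at that level. Hey1, a Notch target that can repress RUNX2, fell 1.78-fold. Among the rises, the RUNX2-binding zinc finger gene Zfp521 rose 1.33-fold, Twist2, whose product restrains RUNX2, 1.26-fold and the mesenchymal homeobox gene Prrx1 1.21-fold. The 6 rises became 2 without FOG-2 Rb- replicate 2 or replicate 3. The call of Zfp521 was lost in both of these fits (adjusted p = 0.0839 and 0.0787), and that of Twist2 was lost in both (0.0543 and 0.0579) and without wild type replicate 3 (0.051). Twist1 did not pass, at a log2 fold change of -0.19 (adjusted p = 0.111).

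Relatives of the matrix members moved in both directions. The 25 genes were those of matrilins, thrombospondins, lecticans and their link proteins, aggrecan- and COMP-cleaving proteases, osteopontin relatives and alkaline phosphatases. Of these, 6 rose, 1 fell and 18 did not pass. Thus 28% of the 25 were called, against 18% of all rows. On average 12 of the 25 lay at or above the odorant receptor level, and all 6 that rose were among these 12. Of all rows at that level, 28.2% were called, a share that does not compare with the 28% of the whole list. The median log2 fold change of the 25 was -0.02. Hapln1, Matn1, Matn3, Matn4, Dmp1 and Mepe are also counted in the cartilage or bone list, and 13 of the 25 lay within the odorant receptor range in both genotypes. The thrombospondin genes Thbs2 and Thbs3 rose 1.37-fold and 1.35-fold. The aggrecanase gene Adamts5 rose 1.27-fold (log2 10.69 ± 0.06 to 11.04 ± 0.01, SD, n = 3 each), as did the related protease gene Adamts1, and Adamts7, whose product cleaves COMP, rose 1.40-fold. Adamts7 no longer passed without wild type replicate 2 (adjusted p = 0.0583) or FOG-2 Rb- replicate 2 (0.0561) or 3 (0.0568). The gene that fell was the intestinal alkaline phosphatase gene Alpi, named after its values were seen and within the odorant receptor range in both genotypes, and no gene of this list fell without FOG-2 Rb- replicate 3.

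Receptors that bind osteopontin, bone sialoprotein or thrombospondins were examined next. Of 12 measured, 4 rose, 1 fell and 7 did not pass, with a median log2 fold change of 0.06. Thus 41.7% were called, against 18% of all rows. On average 9 of the 12 lay at or above the odorant receptor level, every called receptor among them. Of all rows at that level, 28.2% were called. Itgb3 and Itgb5, integrin subunits that pair with αv in osteopontin receptors, rose 1.53-fold and 1.27-fold, the fibronectin receptor subunit gene Itga5 1.32-fold, and the thrombospondin receptor gene Cd47 1.46-fold. Itga8, a subunit of another osteopontin-binding integrin, fell 1.79-fold (log2 8.64 ± 0.03 to 7.81 ± 0.09, SD, n = 3 each). Without wild type replicate 1 the receptors that fell were 2.

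Markers of fibroblasts and of other cells that express the 10 genes were read on the same arrays. All 12 fibroblast markers lay above the odorant receptor range in wild type. Of the 12, 5 fell and 2 rose (58.3% called). In the same fit 18% of all rows were called, and 28.2% of rows at or above the odorant receptor level. The mean log2 level of the 12 was 10.9 on every wild type array and 10.5 on every FOG-2 Rb- array. Dcn fell 3.41-fold, Lum, within the odorant receptor range in FOG-2 Rb-, 2.93-fold and Pdgfra 1.87-fold. The collagen genes Col1a1 and Col3a1, named after their values were seen, rose 1.30-fold and 1.29-fold, and the median log2 fold change over the 12 markers was 0.01. Of 6 tendon markers, which share Comp with cartilage, 3 fell and 1 rose (66.7% called, against the same 18% of all rows). Mean log2 levels of the 6 were 6.20 to 6.30 in wild type and 5.99 to 6.10 in FOG-2 Rb-. Tnmd fell 1.88-fold, the tendon factor gene Scx 1.58-fold, and Mkx rose 1.54-fold. Their part in the changes of the 10 genes was not tested.

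Blood cells express Runx1, Runx3 and Spp1, and osteoclasts express Spp1. Of 11 measured macrophage and blood markers, 2 rose and 0 fell (in limma at an unadjusted p under 0.05, 1 was lower), against 18% of all rows called in the same fit, and their mean log2 level was 5.04 to 5.15 in wild type and 5.12 to 5.17 in FOG-2 Rb-. Ptprc, Adgre1, Tyrobp, Itgam, Laptm5 and Mrc1 lay within the odorant receptor range in both genotypes. Cd68 rose 1.62-fold and Csf1r 1.26-fold; Csf1r no longer passed without replicate 2 or 3 of wild type (adjusted p = 0.0795 and 0.0681) or of FOG-2 Rb- (0.057 and 0.0701). Of 8 osteoclast markers, 1 rose (Ctsk, 1.14-fold) and 1 fell (Mmp9, 1.36-fold), and Acp5, Oscar and Calcr lay within the odorant receptor range in both genotypes; mean log2 levels were 5.79 to 5.84 in wild type and 5.74 to 5.83 in FOG-2 Rb-. Mmp9 no longer passed when replicate 2 of wild type (adjusted p = 0.0539) or of FOG-2 Rb- (0.0517) was left out, and Ctsk without any 1 array except wild type replicate 1 (0.0774 to 0.106).

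Most markers of mesothelium, the epithelial lining of body cavities, rose. Of 9, 7 rose and 1 fell (88.9% called, against 18% of all rows). Their mean log2 level went from 5.84 to 5.92 on the wild type arrays to 6.81 to 6.88 on the FOG-2 Rb- arrays. Upk1b rose 9.68-fold, Krt18 4.72-fold and Upk3b 2.44-fold, whereas the mesothelin gene Msln, a defining marker named after its values were seen, fell 2.35-fold (log2 fold change -1.23). Of 8 endothelial markers Kdr rose 5.18-fold and the other 7 did not pass, with Tie1, Tek, Emcn, Cldn5 and Esam within the odorant receptor range in both genotypes; mean log2 levels were 4.71 to 4.84 in wild type and 5.005 to 5.08 in FOG-2 Rb-. The part of these markers in the changes of the 10 genes was not tested.

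Over the whole table, array medians were 5.65 to 5.73 on the log2 scale, and arrays of 1 genotype correlated more closely across genes (r from 0.997 to 0.998) than arrays of different genotypes (0.990 to 0.991). The targeted gene Zfpm2 measured 9.68 ± 0.07 in wild type and 9.40 ± 0.01 in FOG-2 Rb- (SD, n = 3 each; limma adjusted p = 0.00913); a changed binding site need not alter its level, so this does not check the labels.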

How the data were processed

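RNA of 3 wild type and 3 FOG-2 Rb- fibroblast samples was labelled with an Affymetrix whole-transcript kit, per the labels' protocols. The authors deposited log2 expression values, 1 row per Entrez gene; RMA and Partek are named in the submitters' processing notes, with no version, probe definition or genome build given in the sources used here. A second deposited table holds, per gene, a p-value, a ratio (mutant over WT) and a signed fold change of their own comparison; on the log2 scale its ratio and the difference of group means were within 7.18e-06 of each other. No scanner files were used, so background and saturation were not examined, and the number of arrays limits the precision.

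Rows were named by the platform annotation (23111 with 1 symbol, 0 with several, 637 with none), which named 8 of the 10 genes; Runx2 and Spp1 were named through their Entrez IDs in a RefSeq table. Of 181 different genes in all lists, 179 had a row. Members and lists were chosen with earlier results of these data known. Named from each list are up to 5 genes (markers, up to 3) past the threshold with the largest change, all 10 members, and Zfpm2, Sox9, Sox5, Sox6, Col2a1, Bglap, Dlx5, Cbfb and Twist1.

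The test was limma 3.58.1 under R 4.3.3 (lmFit, eBayes, genotype as the only term, two-sided), adjusted over 23748 rows at 0.05. On data simulated for this comparison with 23748 rows, it recovered 22% of changes of 0.3 on the log2 scale, 56% of 0.5, 94% of 1 and 98% of 2, with 5 false among 140 calls. The simulation changed far fewer rows than the 4281 called in the data, so its recovery rates need not hold for these data. Alternatives were each array left out, a replicate block, other variance priors, normalization, centring or naming, no dim rows, and an ordinary test.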

Additional observations from a re-analysis of the deposited data

How the results depend on the processing

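Spp1, Runx2 and Matn2 kept their direction and their calls under every alternative run. The 5 falls among the 10 genes became 3 with the ordinary test, where Runx3 had adjusted p = 0.0517 and Acan 0.0999, and 3 of 8 with platform symbols alone, which leave out Runx2 and Spp1; without 1 array they were 4. The count over all rows was 2805 to 3446 without 1 array, against 4281. Without dim rows, 0 cartilage genes rose, RUNX partners that fell were 6, related matrix genes that fell 0 and receptors that fell 2. A variance prior with an intensity trend gave 5 falling RUNX partners and 2 falling receptors, and there were also 2 falling receptors with the ordinary test and with quantile normalization anew. Without 1 array, rising RUNX partners were 2 to 6, falling matrix genes 0 to 1 and falling receptors 1 to 2. For Sp7, never past the threshold, the log2 fold change ranged from -0.11 to 0.063 without 1 array and turned positive without FOG-2 Rb- replicate 3 or either of the first wild type replicates (1, 2), and under quantile normalization anew (0.03). For Comp, also never past it, the range was -0.14 to 0.024, positive without FOG-2 Rb- replicate 2 or replicate 1 of wild type. Same-numbered arrays shared little deviation from their group means (correlations 0.00 to 0.03, against -0.03 to 0.02 for arrays of different numbers). With 3 arrays per group this cannot settle whether the numbers pair them. With the replicate block, 3181 rows were called, 4 members fell (Runx1, adjusted p = 0.0661, did not pass), and 2 receptors fell. The cause of these shifts was not tested, beyond the fewer arrays or rows that some settings hold.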

Other observations

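Spp1 lies in a cluster of genes for mineral-binding phosphoproteins. The 5 measured genes on either side of it in gene order (RefSeq, GRCm38.p6) were taken by position after the values were known. Of these 10, 2 fell and 0 rose in limma (0 higher at an unadjusted p under 0.05). In the same fit 18% of all rows were called, 8.59% as lower. Abcg3 was also lower at an unadjusted p of 0.0338 in limma and did not pass (adjusted p = 0.127). Sparcl1, a matricellular protein gene at the far end of the cluster, fell from 8.49 ± 0.07 to 8.15 ± 0.01 on the log2 scale (SD, n = 3 each; log2 fold change -0.34, limma adjusted p = 0.00522). Pkd2, the polycystin 2 gene next to Spp1, fell from 10.21 ± 0.04 to 9.97 ± 0.03 (log2 fold change -0.24, adjusted p = 0.0149). Dspp, Dmp1, Ibsp and Mepe, the relatives of osteopontin between Sparcl1 and Spp1, had log2 fold changes of -0.07, -0.02, -0.14 and -0.10, with adjusted p from 0.454 to 0.94, at levels within the odorant receptor range.

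In the authors' deposited table, 6 of the 10 genes have an unadjusted p under 0.05, as do 28.2% of all rows. After Benjamini-Hochberg adjustment of those p-values 4 pass (Spp1, Matn2, Runx2 and Runx1), as do 15% of all rows. For each of the 10 genes these adjusted values equal those of the ordinary test given above. They repeat that test on the same values and are not separate support. The ratios of mutant over wild type in the authors' deposited table are 0.597 for Spp1, 0.660 for Runx3 and 0.686 for Acan.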
